A study of Mus musculus with 5 samples.

Results

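The adenylyl cyclase genes Adcy1, Adcy2, Adcy3, Adcy5, Adcy6, Adcy7, Adcy8 and Adcy9, the gene Adcyap1 for the neuropeptide PACAP and the gene Adcyap1r1 for its receptor PAC1 were followed across 5 libraries of dentate gyrus (DG) RNA from wild-type CD1 mice, an outbred strain. These 10 genes were chosen by their symbols among the 23420 gene symbols of the series, with earlier results of these data known. All 10 were among the 13550 genes with a mean level of at least 5, called expressed here. The mice were male, were 4 months old according to the labels, and spent 4 weeks in their housing before the entire DG was dissected. LD mice were housed singly with a running disk that was glued in place, and they served as the control. CE mice lived in groups with a locked disk and tunnels that were moved every day. RUN mice were housed singly with a disk that turned freely. LD, CE and RUN were each 1 library of RNA pooled from 8 mice. L-RUN and H-RUN were each 1 library pooled from 4 of the same runners, namely those with the lowest and the highest running distances. CE thus differed from LD in company and tunnels together, and the LD and running mice shared single housing.

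Adenylyl cyclases are membrane enzymes that turn ATP into the second messenger cyclic AMP (cAMP) when a receptor activates the stimulatory G protein. Isoforms differ in what else they respond to. Adcy1, Adcy3 and Adcy8 encode enzymes that calcium and calmodulin stimulate, Adcy2 and Adcy7 encode enzymes that G protein beta-gamma subunits enhance, and the products of Adcy5 and Adcy6 are inhibited by calcium and by inhibitory G proteins. PACAP, released by neurons, binds PAC1, which couples to cyclases and also to phospholipase C, and in the hippocampus cAMP acts on protein kinase A, on Epac exchange factors and, through CREB, on transcription and lasting synaptic plasticity.

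The values were regularized log (rlog) values on the log2 scale, normalized by the authors over all 5 libraries. Differences between 2 libraries are given on this scale, and a gene was taken as changed when the difference reached 0.3 in size, the cut-off of the study (a 1.23-fold difference). Each group was 1 library, so no difference has a replicate check and no p-value was computed. Errors are technical SDs of a difference between 2 libraries, estimated, among genes of like expression, from how far RUN departed from the value expected if its RNA were L-RUN and H-RUN in equal parts. They ranged from 0.022 to 0.047 for the 10 genes, and they leave out the differences between mice. Read counts are not among the files used here, so sequencing depth is unknown. Granule cell markers were well above the expression limit in all libraries, with Prox1 between 11.61 and 12.01 and Calb1 between 12.91 and 13.08.

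At the cut-off, 1 of the 10 genes changed in CE, 2 changed in L-RUN and 1 changed in H-RUN, always downwards, and the RUN comparison had 0. Adcy1 was the gene that fell in CE, Adcy1 and Adcy9 fell in L-RUN, and Adcyap1r1 fell in H-RUN. Of all 13550 expressed genes, 0.598% passed the cut-off for CE, 1.31% for RUN, 3.13% for L-RUN and 0.827% for H-RUN. Lower values alone accounted for 0.266% of genes in CE, 2.33% for L-RUN and 0.472% for H-RUN. The median difference of the 10 genes from LD was 0.01 for CE, -0.09 for RUN, -0.13 for L-RUN and -0.06 for H-RUN, while the medians over all expressed genes lay between -0.0035 and -0.0013. All 4 comparisons share the LD library, and a high or low LD value moves all of them together. In pooled tissue RNA, fewer cells of a type and less RNA per cell cannot be told apart, and this holds for every value given here.

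**Figure D1:**
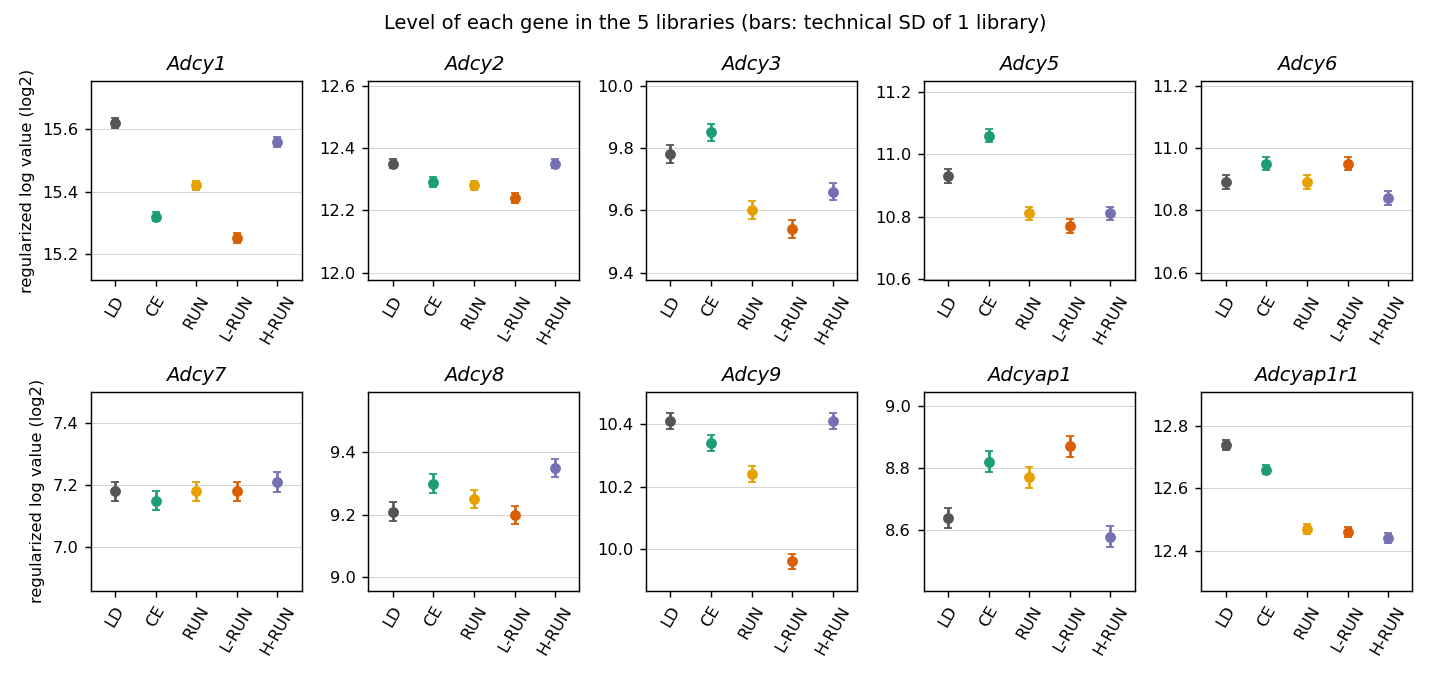
Regularized log value (vertical axis, log2) of each of the 10 genes in the 5 libraries, with bars for the technical SD of 1 library and the same span in every panel. Adcy9 had the widest range, 0.45, with L-RUN far below the other libraries, and Adcyap1r1 had its 3 running libraries together at 12.44 to 12.47.

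Levels of different genes were compared per length, as the mean rlog value minus log2 of the longest transcript in kilobases. Adcy1 was the most abundant member by this measure, at 11.82, followed by Adcy2 at 10.23 and Adcyap1r1 at 9.94. Adcy6 (8.31), Adcy5 (8.06) and Adcy9 (7.96) came next, then Adcy3 (7.20), Adcyap1 (6.97), Adcy8 (6.46) and Adcy7 (4.61). Neighbours in this order had ranges over the 5 libraries that did not overlap, except Adcy6 and Adcy5, Adcy5 and Adcy9, and Adcy3 and Adcyap1. The longest transcript listed for Adcy3 has no coding sequence, unlike those of the other members, so its length is less comparable. On the linear per-length scale, Adcy1 made up 63.5% of the summed level of the 8 cyclases in LD, 58.6% for CE, 61.5% for RUN, 59.5% for L-RUN and 62.7% for H-RUN. Adcy2 held 19.1% to 21.5%, and Adcy7 0.4% to 0.5%. The per-length sum of the 8 cyclases differed from LD by -0.19 for CE, -0.16 for RUN, -0.28 for L-RUN and -0.05 for H-RUN on the log2 scale. Without Adcy1, the sum of the other 7 differed by -0.08 for RUN, -0.13 for L-RUN and -0.02 for H-RUN, and by less than 0.01 for CE. The sum over cyclases was thus mainly a reading of Adcy1.

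Adcy1 encodes the calcium-stimulated cyclase of neurons that is known for its part in mossy fiber plasticity. The gene lies on chromosome 11 (7063489 to 7178506, plus strand, GRCm38, the build also called mm10), and its longest transcript measures 12.26 kb, the longest of the 10. Its rlog value was 15.62 for LD, 15.32 for CE, 15.42 for RUN, 15.25 for L-RUN and 15.56 for H-RUN. LD and H-RUN were high, L-RUN and CE were low, and RUN lay between. The difference from LD was -0.30 for CE, -0.20 for RUN, -0.37 for L-RUN and -0.07 for H-RUN (technical SD 0.022). By size, this ranked 78th of 13550 genes in CE and 225th in L-RUN. The CE value lay next to the cut-off, and quantile normalization moved it to -0.25. The L-RUN value, 0.77 of the LD level, was -0.22 against the mean of LD and CE, since CE was low as well.

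Adcy3 and Adcy8 encode the other calcium-stimulated cyclases, and neither passed the cut-off against LD. Adcy3 (chromosome 12, 4133103 to 4213525, plus strand), also known as the cyclase of olfactory neurons and of primary cilia, had rlog values of 9.78 for LD, 9.85 for CE, 9.60 for RUN, 9.54 for L-RUN and 9.66 for H-RUN. All 3 running libraries were below both libraries without running, although RUN adds no mice to those of L-RUN and H-RUN. Differences from LD were 0.07 for CE, -0.18 for RUN, -0.24 for L-RUN and -0.12 for H-RUN (technical SD 0.040). Exons of Adcy3 overlap those of Cenpo on the opposite strand, and reads of the pair cannot be told apart unless strand was used in counting. Adcy8 (chromosome 15, 64697084 to 64922296, minus strand) had rlog values of 9.21 for LD, 9.30 for CE, 9.25 for RUN, 9.20 for L-RUN and 9.35 for H-RUN. Here H-RUN was highest, 0.15 above LD (technical SD 0.042), while L-RUN differed from LD by -0.01.

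Adcy9 encodes a widely expressed cyclase that forskolin hardly activates. The gene lies on chromosome 16 (4287529 to 4420498, minus strand). Its rlog value was 10.41 for LD, 10.34 for CE, 10.24 for RUN, 9.96 for L-RUN and 10.41 for H-RUN. L-RUN stood alone at the low end, and H-RUN was level with LD. Adcy9 fell by 0.45 on the log2 scale in L-RUN (technical SD 0.036), to 0.73 of its LD level, which ranked 122nd of 13550 genes by size. It differed from LD by -0.07 for CE, -0.17 for RUN and -0.0028 for H-RUN.

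Adcy2, Adcy7, Adcy5 and Adcy6 all stayed within the cut-off of LD. Adcy2 (chromosome 13, 68620043 to 68999541, minus strand), the second most abundant cyclase here, had rlog values of 12.35 for LD, 12.29 for CE, 12.28 for RUN, 12.24 for L-RUN and 12.35 for H-RUN. Its largest difference from LD was -0.11, in L-RUN (technical SD 0.022). Adcy7 (chromosome 8, 88272403 to 88329962, plus strand) had the narrowest range of the 10, from 7.15 for CE to 7.21 for H-RUN, which is of the order of its technical SD of 0.044. Adcy5 (chromosome 16, 35154877 to 35305738, plus strand), the main cyclase of the striatum, had rlog values of 10.93 for LD, 11.06 for CE, 10.81 for RUN, 10.77 for L-RUN and 10.81 for H-RUN. As for Adcy3, CE was highest and the 3 running libraries, of which RUN shares its mice with L-RUN and H-RUN, were lowest. Adcy5 differed from LD by 0.13 for CE and by -0.12, -0.16 and -0.12 for RUN, L-RUN and H-RUN (technical SD 0.031). Adcy6 (chromosome 15, 98589973 to 98610076, minus strand) ranged from 10.84 for H-RUN to 10.95 for CE and L-RUN, with LD and RUN both at 10.89. Noncoding genes on the opposite strand overlap exons of Adcy2 (Gm35161) and of Adcy6 (Gm29331), with the same limit on telling their reads apart as for Adcy3.

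Adcyap1 encodes the precursor of PACAP, a peptide of the secretin and glucagon family that raises cAMP. The gene lies on chromosome 17 (93199017 to 93206537, plus strand), and its longest transcript, at 3.39 kb, is the shortest among the 10 genes. Its rlog value was 8.64 for LD, 8.82 for CE, 8.77 for RUN, 8.87 for L-RUN and 8.58 for H-RUN. LD and H-RUN were low, while CE, RUN and L-RUN were high. The difference from LD was 0.18 for CE, 0.13 for RUN, 0.23 for L-RUN and -0.06 for H-RUN (technical SD 0.047), and none passed the cut-off. Adcyap1 was the only member with a positive difference above 0.2 in any of these 4 comparisons. Of the markers of fibroblasts of the leptomeninges, 5 of 5 were expressed, and log2 of their summed level was 10.37 for LD, 10.66 for CE, 10.53 for RUN, 10.88 for L-RUN and 10.12 for H-RUN. The single markers did not share 1 order. Dcn, the most abundant, was highest in CE, at 9.82, while Slc13a4, Aldh1a2 and Slc6a13 were highest in L-RUN and higher in RUN than in CE. The interneuron marker Sst was at 11.37 for LD, 11.71 for CE, 11.57 for RUN, 11.68 for L-RUN and 11.42 for H-RUN. Lhx6, of the same list, differed from LD by 0.24 for CE, 0.03 for RUN, 0.15 for L-RUN and 0.0 for H-RUN. Pvalb differed from LD by 0.06 for CE, -0.01 for RUN and -0.06 for L-RUN. The interneuron markers Gad1 and Gad2 differed from LD by between -0.07 and 0.03, and all 5 interneuron markers were expressed, with summed levels of 14.04 to 14.13. Log2 of the summed mossy cell markers was 11.45 for LD, 11.59 for CE, 11.65 for RUN, 11.69 for L-RUN and 11.57 for H-RUN. Of these, Calb2 differed from LD by 0.15 for CE, 0.23 for RUN, 0.27 for L-RUN and 0.15 for H-RUN. Csf2rb2 differed by 0.03, -0.14, 0.04 and -0.17 in the same order, and Drd2 by at most 0.01 in size. The part of these cells in the Adcyap1 values was not tested.

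Adcyap1r1 encodes PAC1, a receptor of PACAP. It lies on chromosome 6 (55451978 to 55501451, plus strand). The rlog value was 12.74 for LD, 12.66 for CE, 12.47 for RUN, 12.46 for L-RUN and 12.44 for H-RUN. All 3 running libraries were below LD and CE and within 0.03 of each other. The difference from LD was -0.08 for CE, -0.27 for RUN, -0.28 for L-RUN and -0.30 for H-RUN (technical SD 0.022). Only H-RUN passed the cut-off, at rank 110 of 13550 genes by size, where the gene fell to 0.81 of the LD level. The cut-off thus fell between near-equal running values. The H-RUN difference was -0.29 after quantile normalization and -0.26 against the mean of LD and CE, which puts it inside the cut-off.

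Promoter sequences are shown for the genes whose L-RUN values were furthest from LD in each direction, Adcy1 and Adcy9 below it and Adcyap1 above it. Each run gives the 250 bases before a transcription start in RefSeq (GRCm38.p6), read 5′ to 3′ on the strand of the gene. Capitals mark the core of the cAMP response element (CRE), the site that CREB binds, searched as TGACG and, for the other strand, CGTCA. The windows are chr11:7063183-7063432 on the plus strand for Adcy1, chr16:4420499-4420748 on the minus strand for Adcy9 and chr17:93198767-93199016 on the plus strand for Adcyap1.
Adcy1: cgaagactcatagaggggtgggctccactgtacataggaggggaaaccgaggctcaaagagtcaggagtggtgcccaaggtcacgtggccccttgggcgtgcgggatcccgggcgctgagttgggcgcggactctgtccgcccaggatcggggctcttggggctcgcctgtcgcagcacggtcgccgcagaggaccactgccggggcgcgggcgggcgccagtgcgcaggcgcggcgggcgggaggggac
Adcy9: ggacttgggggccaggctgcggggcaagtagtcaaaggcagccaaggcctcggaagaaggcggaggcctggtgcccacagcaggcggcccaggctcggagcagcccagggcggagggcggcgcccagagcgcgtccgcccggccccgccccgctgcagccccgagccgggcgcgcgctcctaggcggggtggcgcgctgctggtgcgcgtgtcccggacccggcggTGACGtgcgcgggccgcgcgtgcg
Adcyap1: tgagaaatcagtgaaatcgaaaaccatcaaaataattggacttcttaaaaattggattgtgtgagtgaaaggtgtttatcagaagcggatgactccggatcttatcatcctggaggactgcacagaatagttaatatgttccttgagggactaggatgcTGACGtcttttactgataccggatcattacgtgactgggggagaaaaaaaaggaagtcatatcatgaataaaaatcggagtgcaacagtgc
The CRE core was found at position -24 before the Adcy9 start and at position -91 before the Adcyap1 start, counting the base next to the start as -1, and not in the Adcy1 window. Windows were available for 8 of the 10 genes, all except Adcy6 and Adcy8, and some genes have more than 1. The core was in 4 of their 12 windows, 1 of Adcy7, 1 of Adcy9 and both of Adcyap1, which overlap and hold the same site. Of all 32817 windows of this length, 17.7% hold the core, and 1.5% hold the full element TGACGTCA, which none of the 12 windows of the members has. The windows differ in composition, with 71.2% G and C for Adcy1, 78.8% for Adcy9 and 39.6% for Adcyap1. A match of letters is a description of the window and not evidence of binding.

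**Figure D2:**
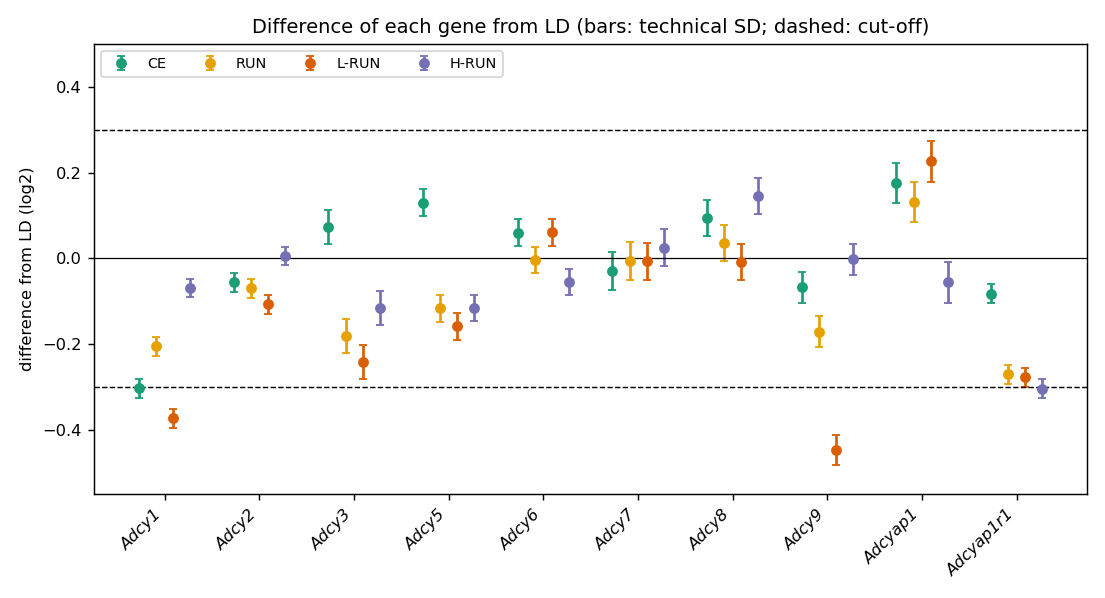
Difference of each gene from LD (vertical axis, log2) in CE, RUN, L-RUN and H-RUN, with bars for the technical SD and dashed lines at the cut-off of 0.3 in both directions. Adcy1 for CE (-0.30), Adcy1 and Adcy9 for L-RUN (-0.37 and -0.45) and Adcyap1r1 for H-RUN (-0.30) reach the lower line, and no gene reaches the upper one.

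The low and high runners were also compared directly, which does not involve LD. In H-RUN minus L-RUN, 2 of the 10 genes passed the cut-off, both higher in H-RUN, against 1.54% of all expressed genes in either direction and 0.974% upwards. Adcy9 was higher in H-RUN by 0.44, rank 53 of 13550 by size, and Adcy1 by 0.30, rank 202, or by 0.24 after quantile normalization. Adcyap1 had a difference of -0.28, rank 258, without reaching the cut-off. The remaining 7 genes differed by between -0.12 for Adcy6 and 0.15 for Adcy8. Adcyap1r1, at -0.03, was close to its technical SD of 0.022.

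RUN and CE were the running and the running-independent form of enrichment. In RUN minus CE, 0 of the 10 genes passed the cut-off, against 0.834% of all expressed genes. The differences furthest from 0 were those of Adcy3 and Adcy5, both -0.25, at ranks 217 and 239 of 13550, and of Adcyap1r1, at -0.19. Adcy1, which was below LD in both, was 0.10 higher in RUN than in CE.

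RUN held RNA of the L-RUN and H-RUN mice, and its values can be set beside those computed for equal parts of both. Among the 10 genes, the residual of RUN furthest from 0 was 0.040, for Adcyap1. The technical SDs were estimated from such residuals over all genes, so the residuals are a description and not a separate test. For Adcy9, where the parts were far apart at 9.96 and 10.41, RUN at 10.24 was 0.036 above the mixture (SD of the residual 0.031). RUN thus lay between its parts, and whether other low runners would show the same values was not tested.

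Differences from LD varied with transcript length over the whole series, most of all in L-RUN. Across expressed genes, Spearman's rho between transcript length (longest transcript) and the L-RUN difference was -0.51, and it was -0.33 for CE, -0.37 for H-RUN and -0.49 for RUN. The genes are not independent and all share the same libraries. Of the tenth of genes with the longest transcripts (at least 6.99 kb), 10.49% were lower in L-RUN by 0.3 or more, and of the tenth with the shortest 0.23%. The members are long, 9 of the 10 exceeding the median of 3.52 kb. With the trend removed, the L-RUN difference of Adcy1 went from -0.37 to -0.22 and its CE difference from -0.30 to -0.23, so that neither passed the cut-off. Adcy9 stayed past it in L-RUN, at -0.40. Adcyap1r1 for H-RUN went to -0.27, and Adcyap1 for L-RUN stayed at 0.23. The number of members below LD went from 8 to 6 of 10 in both L-RUN and RUN. Before removal of the trend, 50.7% of all expressed genes were below LD in each of these comparisons. How far transcript length had a part in the values of Adcy1 was not tested.

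**Figure D3:**
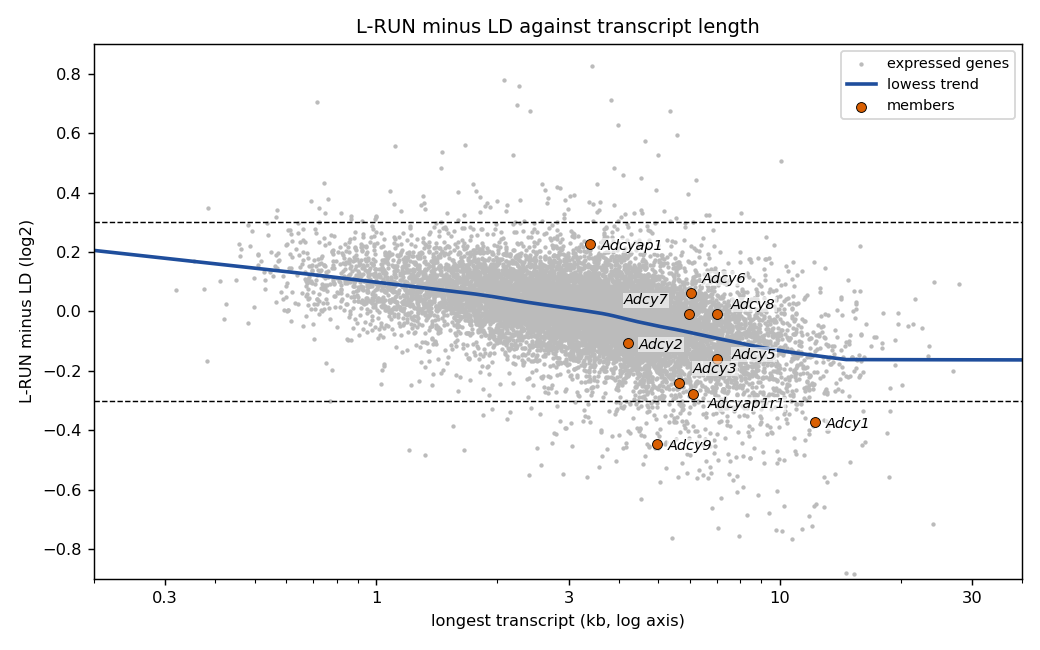
L-RUN minus LD (vertical axis, log2) against the length of the longest transcript (horizontal axis, kb, log scale) for expressed genes in grey, with their lowess trend in blue and the 10 members in orange. Dashed lines mark the cut-off, and of the members Adcy9 lies furthest below the trend and Adcyap1 furthest above it (genes outside the axes are not drawn).

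The profiles of the members with the widest ranges, Adcy9, Adcy1 and Adcy3, were set against those of all expressed genes, with the Euclidean distance over the 4 differences from LD as the measure of likeness. The genes nearest to Adcy9 were Ncam2 (distance 0.070), Cnksr2 (0.081) and Prepl (0.084), with differences of -0.38 to -0.37 for L-RUN. Nearest to Adcy1 were Cd109 (0.031), Prex2 (0.064) and Cnot6 (0.086). Nearest to Adcy3 were Etv5 (0.020), Dlc1 (0.026) and Egr1 (0.036), and 66 genes lay within 0.1 of Adcy3, against 9 for Adcy1 and 4 for Adcy9.

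The other genes of cAMP signaling were taken from 10 lists with 65 genes, of which 63 were expressed. The exceptions were the soluble cyclase gene Adcy10, at 2.60 to 2.62, and the PACAP and VIP receptor gene Vipr2, at 4.14 to 4.20. Of the 63, 1 passed the cut-off downwards in CE, 3 did so in L-RUN, 1 passed it upwards in H-RUN and 0 passed it in RUN, beside the 0.598% (CE), 3.13% (L-RUN), 0.827% (H-RUN) and 1.31% (RUN) of all expressed genes. In H-RUN minus L-RUN 0 of the 63 passed, beside 1.54% of all expressed genes, and in RUN minus CE 1 did, beside 0.834%. These counts are near the shares over all genes. The median difference of the 63 was 0.01 for CE, -0.03 for RUN, -0.05 for L-RUN and -0.02 for H-RUN.

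Upstream of the cyclases, 0 of 9 G protein alpha subunit genes passed. Gnas, which encodes a stimulatory subunit, was at 15.11 for LD and 15.35 for CE, a difference of 0.23. Its difference was 0.10 for RUN, 0.09 for L-RUN and 0.05 for H-RUN. Gnal, of the same list, differed from LD by -0.09 for CE, -0.02 for RUN, -0.05 for L-RUN and -0.01 for H-RUN. The widest range in the list was that of Gnaq, whose product activates phospholipase C, with differences of -0.17 for CE, -0.20 for RUN, -0.26 for L-RUN and -0.07 for H-RUN. Vip and Vipr1, for a related peptide and a receptor that binds both peptides, were both -0.16 from LD in H-RUN. Adcy4, the remaining membrane cyclase gene, was near the expression limit at 5.69 to 5.73. Of the 3 calmodulin genes, Calm3 differed most from LD, by 0.13 for H-RUN.

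Downstream, of 9 genes for protein kinase A subunits and inhibitors, 1 passed in CE and 1 in L-RUN. Of all expressed genes, 0.598% and 3.13% passed in these comparisons. Prkar2a, a regulatory subunit, was at 10.20 for LD, 10.03 for CE, 9.93 for RUN, 9.79 for L-RUN and 9.91 for H-RUN. It fell by 0.41 on the log2 scale in L-RUN (technical SD 0.040), and its difference was -0.36 with the length trend removed. The RUN and H-RUN differences of Prkar2a, -0.27 and -0.29, came close to the cut-off, so that all running libraries were low, as for Adcyap1r1. Pkia, an inhibitor of the kinase, was at 13.31 for LD and 12.97 for CE, where it fell by 0.34 (technical SD 0.022), and its running values lay between 13.22 and 13.29. The catalytic subunit genes Prkaca and Prkacb differed from LD by at most 0.09. Of the 2 Epac genes, Rapgef4 had the wider range, from 13.08 for CE to 13.24 for H-RUN.

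Among 16 phosphodiesterase genes, whose products break down cAMP, 1 passed. It did so in L-RUN and in RUN minus CE, beside 3.13% and 0.834% of all expressed genes. Pde1a, a calcium and calmodulin dependent enzyme, was at 11.86 for LD, 11.94 for CE, 11.60 for RUN, 11.55 for L-RUN and 11.69 for H-RUN. It fell by 0.31 for L-RUN (technical SD 0.028), its difference being -0.28 with the length trend removed, and RUN minus CE was -0.34. Pde1a and Adcy3 thus had the same order of libraries, with CE highest and L-RUN lowest. None of 8 A-kinase anchoring protein genes passed. Akap11, with the widest range of them, differed from LD by -0.28 for L-RUN and by -0.16 with the trend removed, its transcript measuring 9.36 kb.

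None of 7 genes of the CREB family and its coactivators passed. Crem had the widest range, from 8.40 for CE to 8.58 for LD. Of 6 genes known to respond to cAMP, 1 passed downwards in L-RUN and 1 upwards in H-RUN. Of all expressed genes, 3.13% and 0.827% passed in these comparisons, in either direction. The share of all genes that passed in any of several comparisons was not computed. Nr4a1, an immediate early transcription factor gene, was at 8.89 for LD, 8.95 for CE, 8.76 for RUN, 8.54 for L-RUN and 8.80 for H-RUN, and fell by 0.35 for L-RUN (technical SD 0.047). Bdnf, which encodes a neurotrophin, was highest in H-RUN, where it was 0.36 above LD (technical SD 0.031), and was 0.26 above it in RUN and 0.19 for L-RUN. The differences of the 6 genes from LD were 0.01 to 0.12 for CE. In RUN and in L-RUN, Bdnf was above LD and the other 5 were below it.

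**Figure D4:**
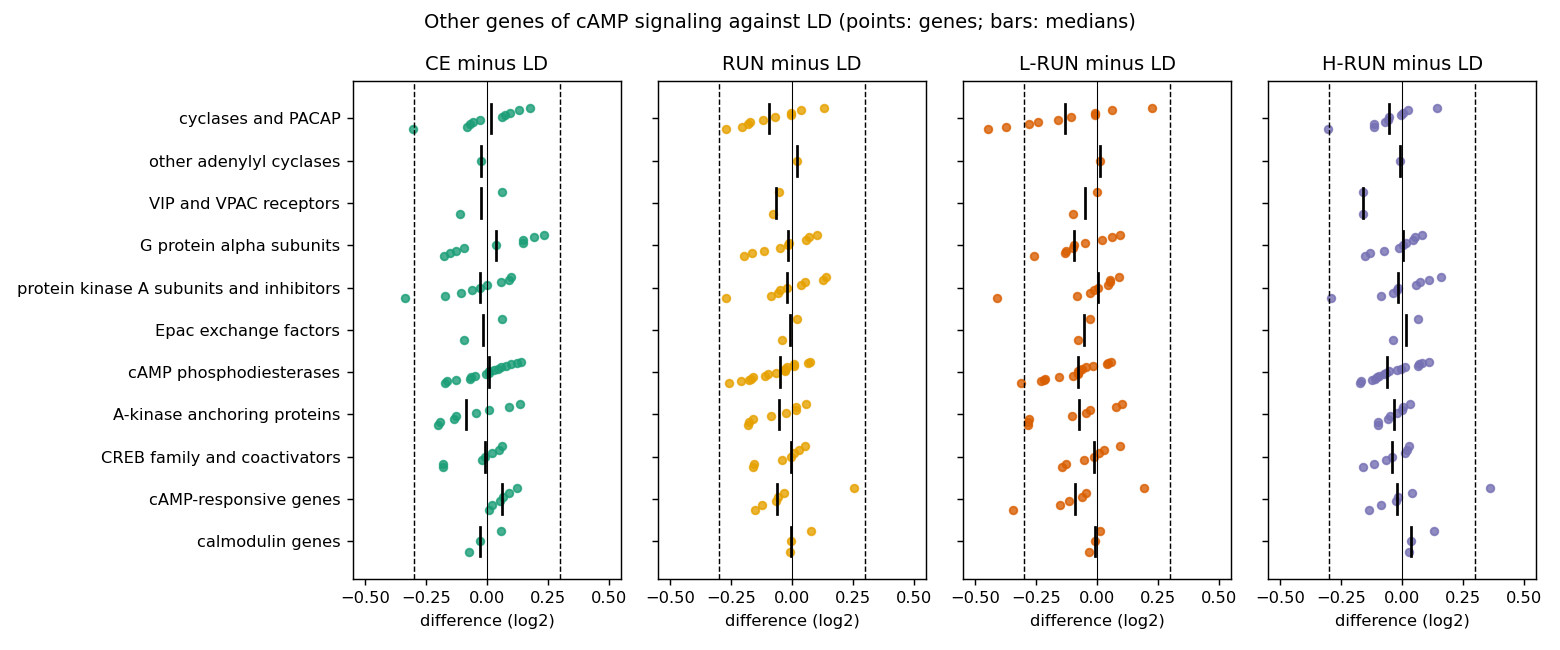
Difference from LD (horizontal axes, log2) of the 10 members and of the expressed genes in the 10 other lists of cAMP signaling, in CE, RUN, L-RUN and H-RUN. Points are genes, black bars are medians, and dashed lines mark the cut-off of 0.3, which Pkia passes in CE, Prkar2a, Pde1a and Nr4a1 pass in L-RUN and Bdnf passes in H-RUN.

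Marker genes of cell types were read beside the members. Which cells carry the transcripts of the members cannot be read from pooled tissue RNA. The mean difference from LD of 5 granule cell markers was -0.11 for CE, -0.02 for RUN, -0.08 for L-RUN and 0.04 for H-RUN. They did not move together, since in L-RUN Prox1 differed by -0.41 and C1ql2 by 0.37. Of the CA1 pyramidal cell markers, 3 of 3 were expressed, with log2 of their sum between 11.65 and 12.17, and their mean difference was 0.15 for CE, -0.24 for RUN, -0.37 for L-RUN and -0.15 for H-RUN. These markers disagreed as well, since Fibcd1 was lowest in H-RUN, at a difference of -0.52, and Wfs1 was highest there, at 0.18. For 4 oligodendrocyte markers the mean was -0.20 for L-RUN and between -0.10 and -0.02 in the others, and for 4 astrocyte markers it lay between -0.09 and -0.03. Of 5 choroid plexus markers, Ttr and Kl were expressed, and the defining markers Folr1, Clic6 and Kcnj13 were below 4 in all libraries. The means of the mossy cell, CA3, interneuron, oligodendrocyte precursor, microglial and endothelial markers lay between -0.14 and 0.14. The mean of the markers of leptomeningeal cells was highest in L-RUN, at 0.65, although Dcn was highest in CE. L-RUN was the lowest library of Adcy1, Adcy2, Adcy3, Adcy5, Adcy8 and Adcy9. The part of these cell types in the values of the cyclase and PACAP genes was not tested.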

How the data were processed

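Dentate gyrus RNA of CD1 mice was measured by RNA-Seq in 5 libraries, 1 per group. Per the methods and the processing notes of the submitters, the authors trimmed adapters, mapped reads to mm10 with TopHat2 2.0.10, obtained counts per RefSeq gene with HTSeq, normalized all libraries together with DESeq2 1.10.1 and extracted regularized log values, which they deposited on the log2 scale. These shrink each gene towards its mean, more so at low counts, and small differences of weakly expressed genes are therefore understated. The values were used as they are, by group as labelled, and no statistical test was possible with 1 library per group.

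Differences were taken in 6 comparisons over the 13550 genes with a mean of at least 5, and called at 0.3. For the technical SD, log2 of the linear mean of L-RUN and H-RUN was subtracted from RUN (median absolute deviation in 10 groups of expression), the variance of this residual being taken as 1.5 times, and that of a difference as 2 times, that of 1 library. Positions and lengths came from GENCODE (GRCm38) by symbol, with a length for 94.2% of expressed genes, and promoters from RefSeq. The length trend was a lowess curve (fraction 0.3). Named were the 10 members, listed genes past 0.3 in a comparison, the gene of each list with the widest range, and the 3 genes nearest to each of the 3 members with the widest ranges. A few others of the lists (Gnas, Gnal, Vip, Vipr2, Adcy10, Prkaca, Prkacb) and single markers were named after their values were seen. The members and lists were chosen with earlier results of these data known. The alternatives tried were other cut-offs, centring, quantile normalization, removal of the length trend, a higher minimum mean, a limit in technical SDs and LD with CE as a joint baseline. Scripts were tested on simulated data. Tables were handled with pandas 2.3.3 and numpy 2.4.6 in Python 3.11.15, correlations used scipy 1.17.1, the lowess curve statsmodels 0.14.6, and plots matplotlib 3.10.9.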

Additional observations from a re-analysis of the deposited data

Results flagged for a closer look

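For 4 genes (Adcyap1, Adcy6, Adcy3 and Adcy5) the differences from LD had opposite signs in a pair of groups, each beyond its technical SD. None of these contrasts was tested, since each group was 1 library. The share of all expressed genes that meet this rule was not computed, so the count cannot be read as a result about the members. Adcyap1 was above LD in L-RUN (0.23) and below it in H-RUN (-0.06), and Adcy6 likewise (0.06 and -0.06). With the length trend removed, the H-RUN difference of Adcy6 was -0.02, inside its technical SD of 0.031. Adcy3 was above LD in CE (0.07) and below it in RUN (-0.18), and Adcy5 likewise (0.13 and -0.12).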

How the results depend on the processing

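The numbers of members past the cut-off are small and, except for Adcy9, rest on values within 0.1 of it. With a cut-off of 0.2 they were 2 in RUN (beside 4.66% of all expressed genes), 5 in L-RUN (9.93%), 3 in H-RUN minus L-RUN (4.93%) and 2 in RUN minus CE (3.48%), and they stayed at 1 in CE (3.77%) and H-RUN (3.31%). With 0.4 they were 0 in CE (0.185%), 1 in L-RUN (1.36%), 0 in H-RUN (0.28%) and 1 in H-RUN minus L-RUN (0.598%). Quantile normalization left 0 in CE (0.63% of all expressed genes), 0 in H-RUN (0.8%) and 1 in H-RUN minus L-RUN (1.42%). Removal of the trend with transcript length left 0 in CE (0.46% of expressed genes with a length) and 1 in L-RUN (2.2%). It left 0 in H-RUN (0.67%) and 1 in H-RUN minus L-RUN (1.35%). The gene that remained in L-RUN and in H-RUN minus L-RUN was Adcy9. With LD and CE averaged into a baseline, there remained 1 in L-RUN, Adcy9, and 0 in H-RUN. The share over all genes was not computed for this baseline. The counts were the same with differences centred on their median, with a minimum mean of 7, and with 3 times the technical SD as a further condition. Of the 60 differences of single members in the 6 comparisons, 60 stayed within 1 technical SD of the value reported when centred, 49 after quantile normalization and 27 after removal of the length trend, and of the 30 that involve a running library and LD, 12 did so with the joint baseline. No difference past the cut-off changed sign under any of these settings. Over all expressed genes, removal of the length trend moved the share of lower genes among those called from 44.4% to 30.5% in CE. The share went from 72.5% to 53.2% in RUN, from 74.5% to 64.8% in L-RUN and from 57.1% to 52.9% in H-RUN. It went from 36.5% to 47.7% in H-RUN minus L-RUN and from 64.6% to 60.8% in RUN minus CE. With the union of exons as length, the per-length levels spanned 7.36 in place of 7.21, in the same order of genes. With the mean of the log values as the mixture, the largest residual of RUN was 0.0535, for Adcy9, in place of 0.0398, for Adcyap1. No paired analysis was possible because each group has 1 library. Depth is unknown, and mice were pooled, so differences between mice cannot be seen.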
